A study of Mus musculus with 12 samples.

Results

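Myelin and oligodendrocyte genes were described here through 9 genes of 31208 in the deposited table, namely Mbp, Mobp, Mal, Cldn11, Cnp, Mag, Mog, Opalin and Sox10. They were chosen by symbol, and each symbol stood on 1 row. The study asked how lactate given before a stroke altered the brain transcriptome, using male C57BL/6 mice of 8 weeks and full-length cDNA sequencing on a nanopore instrument. There were 3 groups of 4 mice. Sham mice had no occlusion, and whether they received an injection is not given in the sources used here. The mice called vehicle-treated had the middle cerebral artery on the left blocked for 6 h (MCAO) after sterile saline had been placed in the ventricle (i.c.v.). The lactate-treated mice had the same 6 h occlusion after 2 μL of lactate at 100 mmol/L, given i.c.v. 24 h earlier. The labels say only lactate, and the methods name the D form for these libraries. No group received lactate without ischemia, so lactate-treated against sham holds both factors together.

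Myelin is the lipid-rich membrane that oligodendrocytes wrap around axons of the brain. Its compact layers are held together by basic proteins such as Mbp, whereas other proteins sit at the inner face next to the axon, in cytoplasmic channels, at tight junctions or on the outermost surface. Sox10 is the transcription factor that keeps cells in the oligodendrocyte lineage and drives most myelin genes. Since whole tissue was sequenced, fewer oligodendrocytes and less RNA per oligodendrocyte cannot be told apart in any value below.

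Total counts ranged from 6815920 to 10677224 per mouse, so that 3 counts corresponded to 0.281 to 0.440 CPM, the unit of level used here, which scales counts by the library total. All 9 genes passed the low-count filter in each comparison, and the 9 genes took between 0.511% and 1.07% of the counts of a mouse. Counts of Mbp were 30056 to 81937 per mouse, with a counting error below 0.577% of the value. Sox10 had only 12 to 67 counts, and counting alone gave an error of 28.9% at the lowest. As CPM of whole reads was not scaled by length, no gene was ranked against another by level. The 9 genes were detected in every mouse, with at least 12 counts.

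Lactate-treated ischemic brains held less Mog, Cnp and Opalin RNA than sham brains, by 34.2%, 30.6% and 39.3%. The other 6 genes, Mbp among them, did not pass the test in that comparison. Called at an adjusted p under 0.05 in edgeR's quasi-likelihood test, 3 of 9 genes (33.3%) were lower and none higher, beside 3.55% of all 17262 genes tested that were lower. Of these 3, Cnp alone stayed called in an edgeR fit of all 12 mice at once. In vehicle-treated against sham brains 0 of 9 genes were called, beside 1.47% of all genes. Lactate-treated against vehicle-treated brains also gave 0 of 9, and there only 0.00574% of all genes, which is 1 gene, were called. The 3 comparisons share their mice in pairs, so their values stand side by side below and are not independent.

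**Figure D1:**
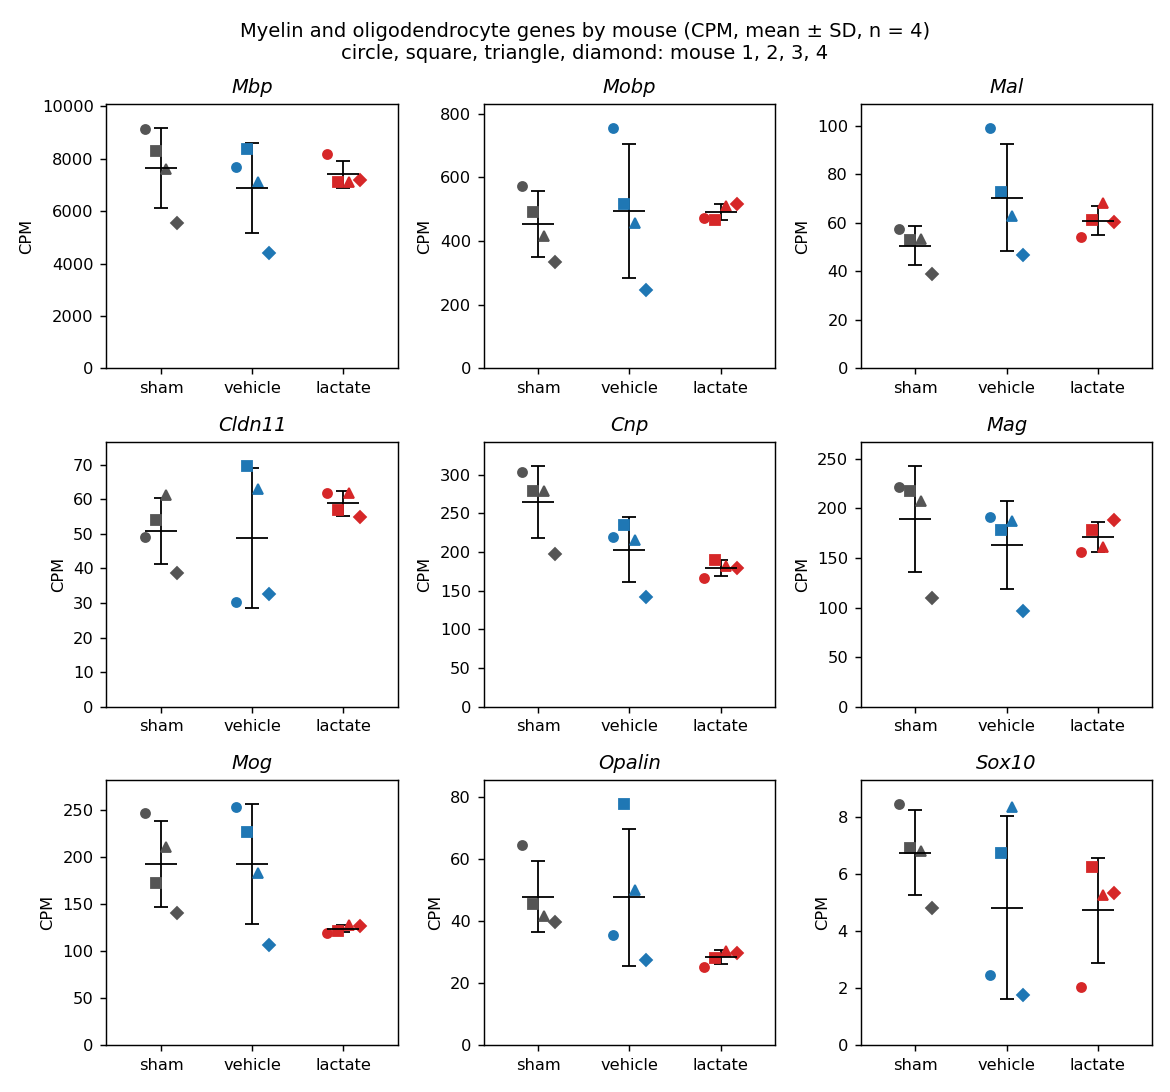
CPM of each of the 9 genes (vertical axes, linear from 0) in sham, vehicle-treated and lactate-treated mice, with 1 symbol per mouse and bars for the mean ± SD of 4 mice. Lactate-treated mice lie below every sham mouse for Mog, Cnp and Opalin, and mouse 4 of the sham group is the lowest sham mouse in all 9 panels.

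Mog encodes an immunoglobulin-like protein of the outermost myelin surface, on chromosome 17 at 37010743 to 37023398, minus strand. It stood at 246, 172, 210.2 and 140.4 CPM in sham mice 1 to 4, 252, 226, 183 and 106 CPM in the vehicle-treated mice and 119, 121, 127 and 126 CPM in the lactate-treated mice. All 4 lactate-treated mice were below the lowest sham mouse and close to each other, while the vehicle-treated mice spread over the sham range and beyond it at both ends. The group means were 192 ± 46.0 CPM for sham, 192 ± 63.8 CPM for vehicle and 123 ± 3.73 CPM for lactate (SD, n = 4). In edgeR, Mog gave a log2 fold change of -0.60 (SE 0.14, adjusted p = 0.0125) for lactate-treated against sham and 0.04 (SE 0.24, adjusted p = 0.967) for vehicle-treated against sham. Between the ischemic groups it was -0.66 (SE 0.22, adjusted p = 0.496). The lowest vehicle-treated mouse, mouse 4, lay under all lactate-treated mice, so those groups overlapped.

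Opalin encodes a membrane glycoprotein found on oligodendrocytes and at paranodal loops, on chromosome 19 at 41061710 to 41077113, minus strand. Its levels were 64.6, 45.5, 41.6 and 39.6 CPM in sham mice 1 to 4, 35.5, 77.7, 50.2 and 27.4 CPM in the vehicle-treated mice and 25.2, 28.0, 30.3 and 29.8 CPM in the lactate-treated mice. No lactate-treated mouse reached the lowest sham mouse, and the vehicle-treated mice ranged from within the lactate values, mouse 4, to above every sham mouse, mouse 2. Mean levels were 47.8 ± 11.5 CPM in sham, 47.7 ± 22.1 CPM in vehicle-treated and 28.3 ± 2.33 CPM in lactate-treated mice (SD, n = 4). Lactate-treated against sham brains had a log2 fold change of -0.72 (SE 0.15, adjusted p = 0.00909) in edgeR, the largest fall among the 9 genes. The same gene had 0.04 (SE 0.28, adjusted p = 0.973) in vehicle-treated against sham. For lactate against vehicle the value in edgeR was -0.77 (SE 0.27, adjusted p = 0.497).

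Cnp encodes 2',3'-cyclic nucleotide phosphodiesterase, a protein of the cytoplasmic channels of myelin, on chromosome 11 at 100574904 to 100591729, plus strand. Cnp was at 304, 279, 279 and 197 CPM in sham mice 1 to 4, 219.9, 235, 215 and 142 CPM in the vehicle-treated mice and 166, 190.3, 183 and 179.8 CPM in the lactate-treated mice. The lactate-treated mice were again all below the lowest sham mouse, mouse 4, here by a narrow margin. Vehicle-treated mice 1 to 3 lay between the lactate-treated group and the higher sham mice, and mouse 4 lay below both. Mean Cnp was 265 ± 46.6 CPM in sham, 203 ± 41.9 CPM in vehicle-treated and 179.7 ± 10.1 CPM in lactate-treated mice (SD, n = 4). The log2 fold change was -0.53 (SE 0.12, adjusted p = 0.0131) for lactate against sham, -0.35 (SE 0.18, adjusted p = 0.414) for vehicle against sham and -0.20 (SE 0.15, adjusted p = 0.738) for lactate against vehicle, all in edgeR. The Cnp locus overlaps Dnajc7, a cochaperone gene on the opposite strand, and whether strand was used in counting is not given in the sources used here. Dnajc7 ran from 93.6 to 103 CPM in sham and from 105 to 121 CPM in lactate-treated mice, with a log2 fold change of 0.20 (edgeR, adjusted p = 0.216), opposite in sign to Cnp.

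Opalin, Mog and Cnp were the genes whose CPM did not overlap between lactate-treated and sham mice, 3 of 9, beside 8.74% of all genes tested that were lower without overlap. With looser limits, a fold change of 1.5 or more together with an unadjusted p under 0.05, 2 of 9 were lower in lactate-treated against sham brains, namely Mog and Opalin, beside 5.65% of all genes. The same 2 genes passed those limits for lactate against vehicle, beside 2.47% of all genes that were lower there. Without vehicle-treated mouse 2 neither passed them, at -0.57 for Mog and -0.43 for Opalin on the log2 scale, and without vehicle-treated mouse 1 Mog, at -0.49, did not reach the fold. In one edgeR fit holding all 12 mice, which shares 1 estimate of the spread over the 3 groups, Cnp kept an adjusted p of 0.0489 for lactate against sham, while Mog had 0.0921 and Opalin 0.0930.

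**Figure D2:**
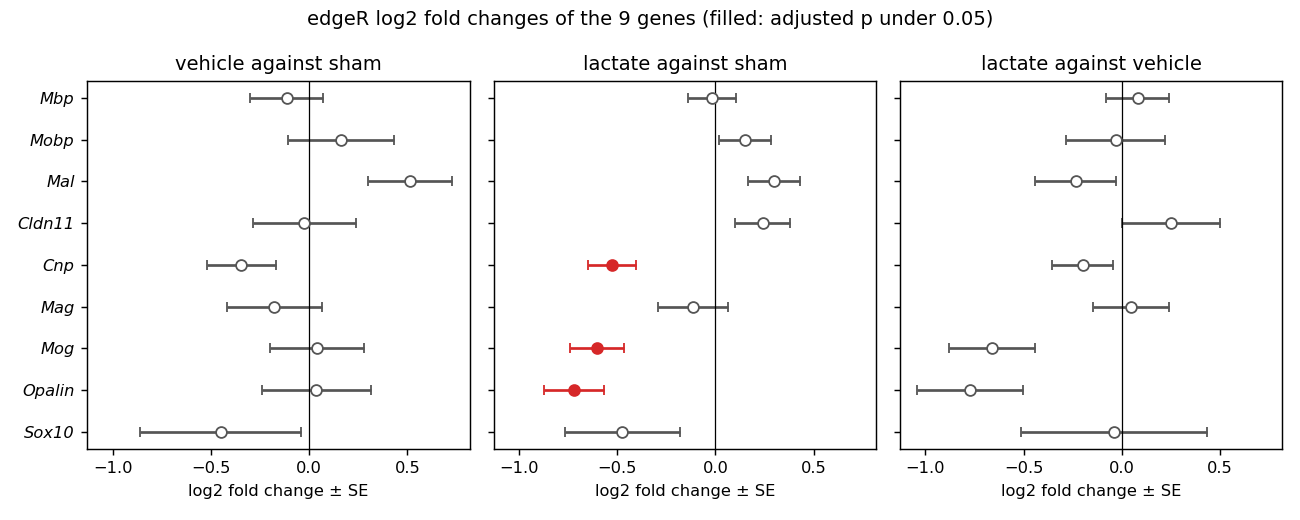
Log2 fold change ± SE (horizontal axes) of the 9 genes in the 3 comparisons, from edgeR fits of 4 against 4 mice, with filled points for an adjusted p under 0.05. Filled points appear only in lactate against sham, for Opalin (-0.72), Mog (-0.60) and Cnp (-0.53).

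The sequence in front of these genes is shown since these 3 were called together while the other genes did not pass the test. Windows of 300 bases, 250 before and 50 after the start, were taken from RefSeq on GRCm38.p6, and 7 of the 9 genes had one. Here 4 are printed 5′ to 3′ along the gene, for the 3 called genes and for Mobp as one not called. Capitals mark matches, on either strand, to the SOX words ACAAAG or ACAATG, the MYRF word CTGGCAC and the E-box word CAGCTG, which reads the same on both strands. No match overlapped another.

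The Mog window was chr17:37023349-37023648, minus strand.
Mog: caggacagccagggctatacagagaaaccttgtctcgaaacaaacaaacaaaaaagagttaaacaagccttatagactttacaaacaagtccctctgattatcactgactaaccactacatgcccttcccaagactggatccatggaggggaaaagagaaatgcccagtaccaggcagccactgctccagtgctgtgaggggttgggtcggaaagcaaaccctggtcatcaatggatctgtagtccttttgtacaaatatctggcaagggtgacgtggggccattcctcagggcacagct
The Opalin window was chr19:41077064-41077363, minus strand.
Opalin: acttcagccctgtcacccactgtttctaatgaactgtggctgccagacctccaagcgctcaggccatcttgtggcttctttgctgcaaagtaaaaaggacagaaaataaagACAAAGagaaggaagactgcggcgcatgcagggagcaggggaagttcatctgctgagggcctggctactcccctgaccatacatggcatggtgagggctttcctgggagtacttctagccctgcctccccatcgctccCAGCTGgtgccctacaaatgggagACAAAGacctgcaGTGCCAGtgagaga
The Cnp window was chr11:100574689-100574988, plus strand.
Cnp: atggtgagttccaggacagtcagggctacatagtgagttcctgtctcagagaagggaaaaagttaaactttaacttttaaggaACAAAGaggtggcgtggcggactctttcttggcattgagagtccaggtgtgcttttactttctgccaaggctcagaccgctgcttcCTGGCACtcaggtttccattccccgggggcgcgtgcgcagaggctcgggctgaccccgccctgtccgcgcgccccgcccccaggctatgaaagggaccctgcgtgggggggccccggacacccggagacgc
The Mobp window was chr9:120149492-120149791, plus strand.
Mobp: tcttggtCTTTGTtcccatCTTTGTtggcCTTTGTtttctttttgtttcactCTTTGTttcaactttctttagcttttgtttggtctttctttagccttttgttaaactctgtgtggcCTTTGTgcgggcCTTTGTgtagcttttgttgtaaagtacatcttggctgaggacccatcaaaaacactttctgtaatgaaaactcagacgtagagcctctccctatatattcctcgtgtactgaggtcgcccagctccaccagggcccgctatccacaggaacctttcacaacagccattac

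Opalin held 2 SOX words, 1 MYRF word and 1 E-box word. Its MYRF word, read on the other strand as GTGCCAG, and the second SOX word lay after the start. Cnp held 1 SOX word 167 bases and 1 MYRF word 81 bases before the start, and Mog held none of these words in this window. Mobp had 6 SOX words, all within 120 to 243 bases before the start. Among genes not called and not printed, Mag held 1 SOX word and 1 MYRF word in both of its overlapping windows at the start, the same pair as Cnp, and none in its other window, while Mal and Cldn11 held no word. Of 32851 windows of the same length, 28.6% held a SOX word, 5.01% the MYRF word and 16.3% the E-box word. The 3 genes that fell thus had no word in common in these windows, and a match is only a run of letters.

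Mbp, the basic protein that zips the cytoplasmic faces of compact myelin, lies on chromosome 18 at 82475146 to 82585637, plus strand, and its row sums the products of 14 annotated protein-coding transcripts. It made up 82.9% to 88.5% of the reads of the 9 genes. Mbp was at 9134, 8315, 7621 and 5567 CPM in sham mice 1 to 4, 7674, 8361, 7115 and 4409.7 CPM in the vehicle-treated mice and 8172, 7117, 7111 and 7203 CPM in the lactate-treated mice. All 3 groups overlapped, and mouse 4 was the lowest of both the sham and the vehicle-treated mice. Its log2 fold change was -0.12 (SE 0.19, adjusted p = 0.844) for vehicle against sham, -0.02 (SE 0.12, adjusted p = 0.949) for lactate against sham and 0.08 (SE 0.16, adjusted p = 0.912) for lactate against vehicle in edgeR. These SEs leave room for modest changes of Mbp in either direction.

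Mobp, a further basic protein of compact myelin, lies on chromosome 9 at 120149707 to 120181484, plus strand. Mobp gave 573, 491, 416 and 334 CPM in sham mice 1 to 4, 756, 517, 455 and 245 CPM in the vehicle-treated mice and 473, 467, 510.4 and 515 CPM in the lactate-treated mice. Vehicle-treated mouse 1 was the highest and vehicle-treated mouse 4 the lowest of all 12, so that the lactate-treated mice fell inside the range of both other groups. The edgeR log2 fold change was 0.16 (SE 0.27, adjusted p = 0.849) for vehicle against sham, 0.15 (SE 0.13, adjusted p = 0.512) for lactate against sham and -0.03 (SE 0.25, adjusted p = 0.986) for lactate against vehicle.

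Mal, a proteolipid of myelin and of membrane sorting, lies on chromosome 2 at 127633226 to 127656695, minus strand. For Mal the values were 57.4, 52.8, 53.4 and 38.9 CPM in sham mice 1 to 4, 99.2, 72.7, 62.7 and 46.8 CPM in the vehicle-treated mice and 54.0, 61.2, 68.2 and 60.3 CPM in the lactate-treated mice. Most vehicle-treated mice were above all sham mice, but mouse 4 of the vehicle group was not. Mal was the only one of the 9 genes with an unadjusted p under 0.05 in vehicle against sham, where edgeR gave 0.52 (SE 0.21, adjusted p = 0.309). Its log2 fold change there ran from 0.30 without vehicle-treated mouse 1 to 0.67 without vehicle-treated mouse 4, and its unadjusted p stayed under 0.05 in 4 of the 8 fits without 1 mouse. In lactate against sham edgeR gave 0.30 (SE 0.13, adjusted p = 0.165), so Mal did not pass the test in either comparison. It was -0.24 (SE 0.21, adjusted p = 0.769) between the ischemic groups.

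Cldn11, the claudin that seals the tight junctions between myelin layers, lies on chromosome 3 at 31149920 to 31164324, plus strand. Cldn11 measured 49.2, 54.2, 61.4 and 38.7 CPM in sham mice 1 to 4, 30.3, 69.7, 62.9 and 32.7 CPM in the vehicle-treated mice and 61.8, 56.9, 61.8 and 54.8 CPM in the lactate-treated mice. Vehicle-treated mice 1 and 4 were lower than any other mouse and mouse 2 was higher than any other, so the vehicle group enclosed both other groups. In edgeR its log2 fold change was -0.02 (SE 0.26, adjusted p = 0.980), 0.24 (SE 0.14, adjusted p = 0.294) and 0.25 (SE 0.25, adjusted p = 0.798) for vehicle against sham, lactate against sham and lactate against vehicle.

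Mag, the adhesion molecule on the myelin face next to the axon, lies on chromosome 7 at 30899176 to 30914873, minus strand. Mag stood at 222, 218, 208 and 109.8 CPM in sham mice 1 to 4, 191, 178, 187 and 97.0 CPM in the vehicle-treated mice and 156, 179, 161 and 189 CPM in the lactate-treated mice. In both the sham and the vehicle group mouse 4 was far below the rest, and the lactate-treated mice lay above these 2 and below the other sham mice. The edgeR values were -0.18 (SE 0.24, adjusted p = 0.808) for vehicle against sham, -0.11 (SE 0.18, adjusted p = 0.733) for lactate against sham and 0.05 (SE 0.19, adjusted p = 0.969) for lactate against vehicle.

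Sox10 lies on chromosome 15 at 79154908 to 79165240, minus strand. Its levels of 8.44, 6.91, 6.79 and 4.81 CPM in sham mice 1 to 4, 2.44, 6.73, 8.34 and 1.76 CPM in the vehicle-treated mice and 2.03, 6.23, 5.27 and 5.33 CPM in the lactate-treated mice rest on few reads. Vehicle-treated mice 1 and 4 and lactate-treated mouse 1 were the lowest, and the groups overlapped. The log2 fold change in edgeR was -0.45 (SE 0.41, adjusted p = 0.686) for vehicle against sham, -0.47 (SE 0.29, adjusted p = 0.330) for lactate against sham and -0.04 (SE 0.47, adjusted p = 0.991) for lactate against vehicle. The coefficient of variation of Sox10 was 22.1% in sham, 66.8% in vehicle-treated and 39.1% in lactate-treated mice, each above the counting error of its own group, which was 12.5% to 16.0%, 12.2% to 28.9% and 13.9% to 25.8%. With SEs of up to 0.47 a sizeable change cannot be told from the spread between mice.

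Over the 9 genes, the median log2 fold change was -0.02 for vehicle against sham beside 0.003 over all genes tested, -0.11 beside -0.03 for lactate against sham, and -0.04 beside -0.03 for lactate against vehicle. In vehicle against sham, 1 of 9 genes had an unadjusted p under 0.05 in edgeR, beside 13.8% of all genes, and DESeq2 and limma voom also called 0 of 9. The count of 1 became 0 without vehicle-treated mouse 1 or without sham mouse 3, and 2 with all 12 mice in one fit, with library totals or with the replicate number as a block. In lactate against vehicle, 2 of 9 genes, Mog and Opalin, had an unadjusted p under 0.05, beside 8.84% of all genes, and DESeq2 and limma voom called 0 of 9 as well. That count was 1 without vehicle-treated mouse 2, 3 without vehicle-treated mouse 4 and 2 in the other 6 fits without 1 mouse. A missed threshold with this spread does not show that the genes were equal.

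Much of the spread within groups was shared by the genes. Sham mouse 4 was the lowest of its group for 9 of 9 genes and vehicle-treated mouse 4 for 8 of 9, while sham mouse 1 was the highest for 8 of 9. Without sham mouse 4, edgeR still called Mog, Cnp and Opalin in lactate against sham, 3 of 9. Without vehicle-treated mouse 4, it called 0 of 9 in lactate against vehicle, where Mog had -0.86 (adjusted p = 0.148), Opalin -0.96 (adjusted p = 0.279) and Cnp -0.33 (adjusted p = 0.353). Over all 8 fits without 1 mouse, the values for lactate against vehicle ran from -0.86 to -0.49 for Mog (edgeR, adjusted p = 0.148 to 0.757), from -0.96 to -0.43 for Opalin (adjusted p = 0.279 to 0.779) and from -0.33 to -0.12 for Cnp (adjusted p = 0.353 to 0.891). The values nearest to 0 came without vehicle-treated mouse 1 for Mog and without vehicle-treated mouse 2 for Opalin. Summed over the 9 genes, levels were 6469 to 10659 CPM in sham, 5108 to 9744 CPM in vehicle-treated and 8227 to 9229.5 CPM in lactate-treated mice. For 8 of the 9 genes, all but Sox10, the lactate-treated mice varied least, with a coefficient of variation for Mog of 3.03% against 23.9% in sham and 33.3% in vehicle-treated mice. After the group means were removed, the correlation of log2 levels between pairs of the 9 genes had a median of 0.72 over 36 pairs, with a range of 0.10 to 0.96. These 12 points share their libraries and depth, so the correlation only describes how the genes moved from mouse to mouse.

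Because the genes moved together from mouse to mouse, each was also expressed as reads per 1000 Mbp reads of the same mouse, a measure added after the values were seen and given without a test. The ratio for Mog was 27.0, 20.7, 27.6 and 25.2 in sham mice 1 to 4, 32.9, 27.0, 25.7 and 24.1 in the vehicle-treated mice and 14.6, 17.0, 17.9 and 17.5 in the lactate-treated mice. Every lactate-treated mouse was then below every vehicle-treated and every sham mouse. Opalin ran 5.45 to 7.11 in sham, 4.63 to 9.29 in vehicle-treated and 3.08 to 4.26 in lactate-treated mice, and Cnp ran 33.3 to 36.7, 28.1 to 32.1 and 20.3 to 26.7 in the same order. For 3 of 8 ratios the lactate-treated mice were therefore all lower than the vehicle-treated mice, beside 2.12% of all genes treated in the same way, and the same 3 were all lower than in sham mice, beside 3.37%. Cnp per Mbp read was also lower in all vehicle-treated than in all sham mice, as was the case for 0.288% of all genes, giving a descending order from sham through vehicle to lactate without overlap. Mal per Mbp read was 6.28 to 7.0 in sham and 8.69 to 12.9 in vehicle-treated mice, all higher, beside 2.57% of all genes. The lactate-treated range for Mal, 6.60 to 9.59, overlapped both. On CPM itself 8.74% of all genes were lower without overlap in lactate against sham, beside the 3.37% on the ratio. The 9 genes moved together with Mbp from mouse to mouse, and genes of other cells need not. For such genes a division by Mbp adds its spread, so these shares are not like for like with the ratios here. A ratio to Mbp shows unequal change and not which of the genes changed.

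**Figure D3:**
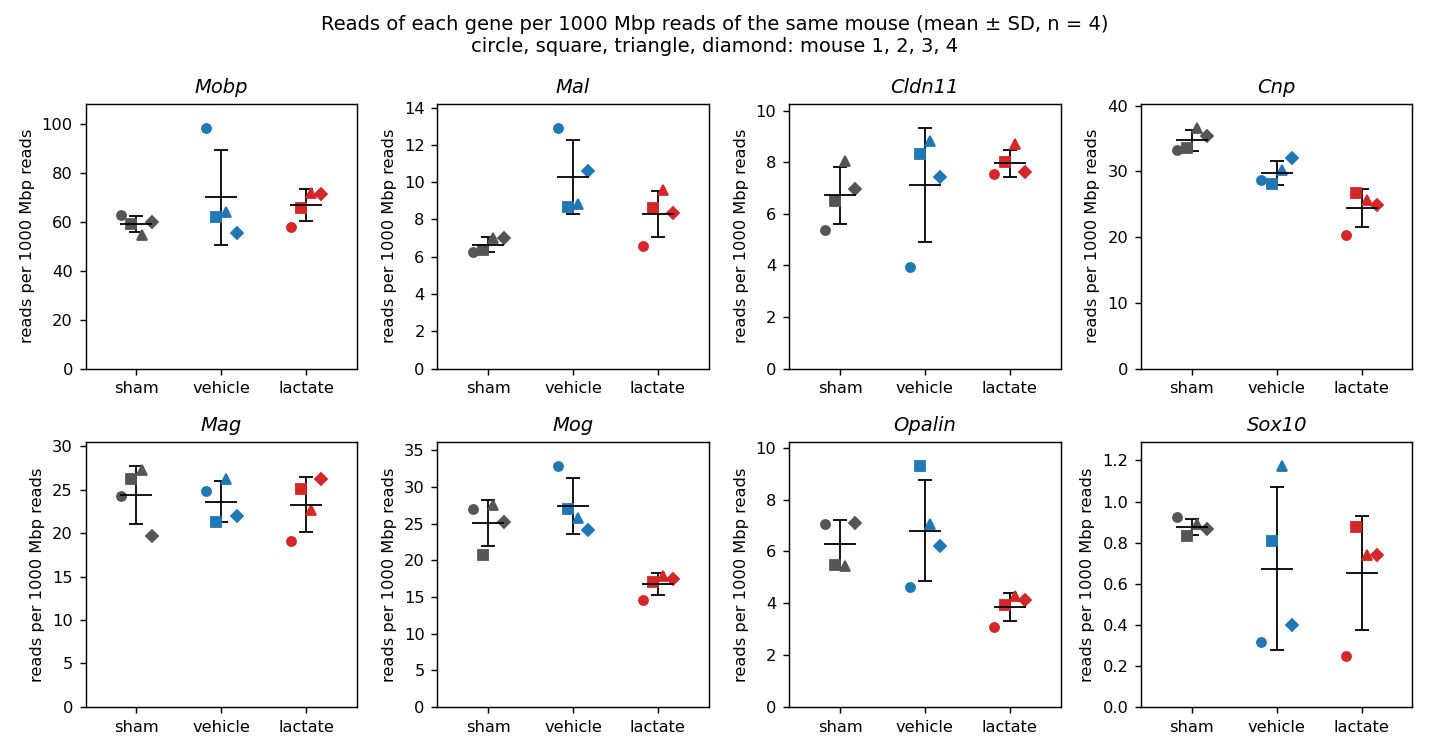
Reads of 8 genes per 1000 Mbp reads of the same mouse (vertical axes, linear from 0), with 1 symbol per mouse and the mean ± SD of 4 mice. Lactate-treated mice are lowest without overlap for Mog (14.6 to 17.9), Opalin (3.08 to 4.26) and Cnp (20.3 to 26.7).

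Further genes of the lineage were taken from 6 lists with 67 genes, of which 65 were tested. In lactate-treated against sham brains 4 were higher and 7 lower, in vehicle against sham 0 and 0, and in lactate against vehicle 0 and 0, at an adjusted p under 0.05 in edgeR. By the looser limits these counts were 4 higher and 7 lower, 1 higher and 4 lower, and 1 higher and 2 lower in the same order, beside shares of all genes of 11.9% and 5.65%, 6.5% and 3.01%, and 3.76% and 2.47%. DESeq2 called 1 lower in vehicle against sham and none in lactate against vehicle, and limma voom called none in either. A single edgeR fit of all 12 mice left 3 higher and 2 lower in lactate against sham, and the fits without 1 mouse gave 3 to 5 higher and 4 to 7 lower, with 4 lower without lactate-treated mouse 2 or sham mouse 3. Of the shares over all genes for lactate against sham, 8.76% were higher and 3.55% lower. All list medians for lactate against sham lay between -0.36 and 0.06, beside -0.03 for all genes tested.

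Among 13 genes of the myelin membrane and its adhesion, 1 rose and 2 fell in lactate-treated against sham brains. Plasmolipin (Pllp), a myelin proteolipid of the same family as Mal, stood at 33.8, 35.3, 36.4 and 28.2 CPM in sham mice 1 to 4, 20.6, 24.9, 26.5 and 19.7 CPM in the vehicle-treated mice and 14.5, 19.5, 19.6 and 17.4 CPM in the lactate-treated mice. The sham mice were above all ischemic mice, and the lactate-treated mice were the lowest, although their highest mouse and the lowest vehicle-treated mouse were nearly equal. The edgeR log2 fold change of Pllp was -0.88 (SE 0.14, adjusted p = 0.00215) for lactate against sham, -0.51 (SE 0.16, adjusted p = 0.181) for vehicle against sham and -0.39 (SE 0.17, adjusted p = 0.554) for lactate against vehicle. Omg, an oligodendrocyte glycoprotein that inhibits axon growth, fell with -0.51 (SE 0.12, adjusted p = 0.0183), and Cd9, a tetraspanin made by many cell types, rose with 0.72 (SE 0.14, adjusted p = 0.00551). With all 12 mice in one edgeR fit Pllp stayed called, whereas Omg had an adjusted p of 0.152 and Cd9 of 0.0516, and Omg was called in 5 of the 8 fits without 1 mouse.

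Of 8 genes for myelin lipids, 1 rose and 2 fell. Aspa, which splits N-acetylaspartate to supply acetate for lipid synthesis, was at 18.6, 15.4, 13.7 and 9.50 CPM in sham mice 1 to 4, 8.52, 17.6, 14.7 and 4.55 CPM in the vehicle-treated mice and 8.25, 7.30, 6.59 and 5.68 CPM in the lactate-treated mice. Every lactate-treated mouse was below the lowest sham mouse, and the vehicle-treated mice spanned from below the lactate values to within the sham range. The log2 fold change in edgeR was -1.01 (SE 0.22, adjusted p = 0.00955) for lactate against sham and -0.72 (SE 0.35, adjusted p = 0.580) for lactate against vehicle. Ugt8a, the enzyme that makes galactocerebroside, fell with -0.69 (SE 0.21, adjusted p = 0.0477). Smpd1, the lysosomal acid sphingomyelinase that is used by most cells, rose with 0.55 (SE 0.14, adjusted p = 0.0238). With all 12 mice in one edgeR fit neither lower call remained, as Aspa had an adjusted p of 0.0695 and Ugt8a of 0.207. Aspa was called in 8 of 8 fits without 1 mouse, Smpd1 in 4 and Ugt8a in 1.

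Of 21 tested genes among other mature oligodendrocyte genes, 2 rose and 2 fell in lactate-treated against sham brains. Cryab, a small heat shock protein that astrocytes also make, was at 116 to 136 CPM in sham and 208 to 249 CPM in lactate-treated mice and had 0.90 (SE 0.10, adjusted p = 7.68e-05) in edgeR. Apod, a lipid-binding secreted protein, had 0.84 (SE 0.15, adjusted p = 0.00297). Car2, carbonic anhydrase of oligodendrocytes, fell with -0.40 (SE 0.09, adjusted p = 0.0144) and Enpp2, the secreted enzyme autotaxin that the choroid plexus also makes, with -0.44 (SE 0.13, adjusted p = 0.0485). With all 12 mice in one edgeR fit the lower calls were lost, with an adjusted p of 0.107 for Car2 and 0.429 for Enpp2, while Cryab and Apod stayed called. In fits without 1 mouse Enpp2 was called in 1 of 8 and the other 3 genes in 8 of 8. The 9 lineage transcription factors gave 0 calls, with 2 at an unadjusted p under 0.05 in edgeR, beside 27.1% of all genes, while DESeq2 called 0 and limma voom 1. Of 5 genes of differentiating oligodendrocytes 0 were called in edgeR, with 2 at an unadjusted p under 0.05 and 0 calls by DESeq2 and limma voom. That count of 2 was 0 without lactate-treated mouse 1, sham mouse 1 or sham mouse 2 and 3 without lactate-treated mouse 2, and the fitted log2 fold changes ran from -0.70 to -0.15. Among 9 tested genes of oligodendrocyte precursors 1 fell, the proteoglycan Cspg5, which neurons also make, with -0.66 (SE 0.13, adjusted p = 0.00613).

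**Figure D4:**
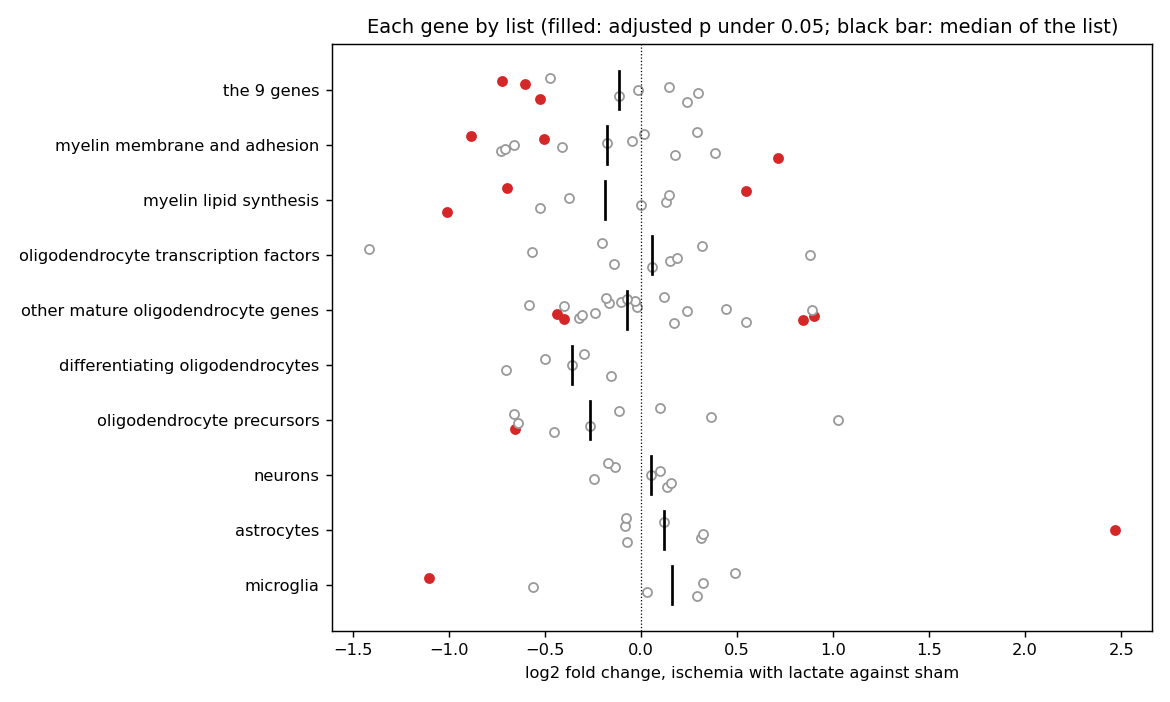
Log2 fold change in lactate-treated against sham brains (horizontal axis) of each tested gene in 10 lists, with filled points for an adjusted p under 0.05 in edgeR and a black bar at the median of each list. Calls lie on both sides of 0 in the lists for myelin membrane, myelin lipids and other mature genes, the transcription factors have none, the 9 genes have only lower calls, and the median of the 9 genes is -0.11.

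Markers of other cells moved in the same comparison, where 8.76% of all genes were called higher, 3.55% called lower and 8.74% lower without overlap. Gfap, the filament protein of astrocytes, was at 34.5 to 73.7 CPM in sham and 248 to 334 CPM in lactate-treated mice, and edgeR gave 2.47 (SE 0.18, adjusted p = 1.99e-06). It was the 1 astrocyte marker of 7 that was called, 3 of the 7 had a fitted value below 0, and the list median was 0.12. P2ry12, a receptor of resting microglia and the 1 of 6 microglia markers called, fell with -1.10 in edgeR (SE 0.19, adjusted p = 0.00265). In that list 4 of the 6 had a fitted value above 0, and the median was 0.16. Aif1 was at 17.6 to 23.3 CPM in sham and 25.3 to 26.3 CPM in lactate-treated mice. Gfap and P2ry12 also passed the edgeR test in vehicle against sham, with 1.64 (SE 0.31, adjusted p = 0.0201) and -1.01 (SE 0.20, adjusted p = 0.0275). There 2 of 6 microglia markers were called lower, beside 1.47% of all genes called in either direction. In that comparison 5 of the 6 had a fitted value below 0, and the microglia sum was 134 to 213 CPM in vehicle-treated mice. Summed over their lists, astrocyte markers were at 6039 to 9979.6 CPM in sham and 9575 to 11355 CPM in lactate-treated mice, microglia markers at 219 to 237 and 211 to 232 CPM, and neuron markers at 4373 to 4717 and 3644 to 4352 CPM. The enzyme Aldoc made up most of the astrocyte sum, and without Aldoc and Gfap that sum was 537 to 816 CPM in sham and 626 to 767 CPM in lactate-treated mice. Of the 7 neuron markers 0 were called in edgeR, with 0 at an unadjusted p under 0.05 and 0 by DESeq2 and limma voom. Genes enriched in striatum were at 288 to 434 CPM in sham, 150.2 to 489 CPM in vehicle-treated and 473 to 613 CPM in lactate-treated mice, and genes enriched in cortex at 519 to 692, 321 to 657 and 367 to 513 CPM. In lactate against sham 1 of 6 striatum genes was called higher and 2 of the 6 had a fitted value below 0, while 2 of 6 cortex genes were called lower, 3 were lower without overlap and 2 of the 6 had a fitted value above 0. Each sum rested mainly on 1 gene. Without Ppp1r1b, the other 5 striatum genes came to 52.8 to 128 CPM in sham and 68.1 to 153 CPM in lactate-treated mice, and without Lamp5 the other 5 cortex genes came to 105 to 133 CPM and 92.6 to 122 CPM. The hypothalamus list summed to 6.91 to 7.47 CPM in sham, 9.59 to 22.2 in vehicle-treated and 17.8 to 24.8 in lactate-treated mice. Most of it was Agrp, at 5.55 to 7.12, 8.84 to 19.9 and 16.6 to 22.0 CPM in the same order. Agrp, the 1 tested gene of 5, was called higher in both ischemic groups against sham. The other genes of that list missed the low-count filter. Of 5 blood genes, mainly hemoglobins, 4 were called lower and 5 were lower without overlap in lactate against sham, with sums of 560.4 to 633 CPM in sham, 333 to 500.4 CPM in vehicle-treated and 375 to 499 CPM in lactate-treated mice. Of 5 endothelial markers 1 was called lower, Slco1a4, with a log2 fold change of -1.70, while 3 had a fitted value above 0 and the list median was 0.26. The sums were 73.0 to 85.0 CPM in sham and 52.6 to 71.6 CPM in lactate-treated mice, and 44.9 to 51.3 and 39.7 to 66.2 CPM without Slco1a4. The choroid plexus list was at 10.3 to 19.2 CPM in lactate-treated and at most 5.41 CPM in sham mice, with its 1 tested gene called higher, and it reached 1838 CPM in vehicle-treated mouse 2. The part of these shifts in the levels of the 9 genes was not tested.

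The genes most like the 9 in pattern were found by Pearson correlation, over 12 mice, of log2(CPM + 1) with the mean of the standardized levels of the 9 genes, among 18125 genes. The 10 highest outside the 9 were Npr2 (r = 0.92), NONMMUG002673.2 (0.91), Plekhb1 (0.90), Bad (0.90), Elovl6 (0.88), Lonp1 (0.88), Lmbr1l (0.88), ONT.2270 (0.87), Evi2 (0.86) and Cys1 (0.86). Of these, 1 was in the lineage lists, Plekhb1. The 9 genes themselves, which enter that mean, ran from 0.50 for Cldn11 to 0.91 for Mag. The 12 mice share groups and libraries, so these values describe likeness alone.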

How the data were processed

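The 12 libraries held total RNA of brain, as full-length nanopore cDNA. Per the study's methods, reads with a mean quality of at least 7 and 500 bp were kept, ribosomal reads removed, and of the rest only full-length reads with primers at both ends aligned to the genome, which the submitters' processing notes give as GRCm38. How reads were assigned to genes, and whether by strand, is not given in the sources used here. The deposited table holds read counts per gene and CPM that the authors computed from them for each mouse. CPM recomputed from the counts differed by at most 4.75e-06. Lines naming no gene, 4 in all, were left out, which left 31208 genes. The table also holds the authors' own fold changes and p-values, headed edgeR, which were not used. The study's methods and notes name DESeq, the notes in version 1.10.1.

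Counts were tested with edgeR 4.0.16 (quasi-likelihood, TMM, R 4.3.3) in fits of 2 groups of 4 mice, keeping genes that reached 1 CPM in 4 or more of the 8 mice. The p-values were adjusted by Benjamini and Hochberg's method across every gene kept. An SE is the log2 fold change divided by the square root of its F statistic. Nothing in the labels says how far the mice were handled apart, and p-values measure the spread between these samples. Alternatives were other size factors, no low-count filter, a replicate block, all 12 mice in one fit, DESeq2 1.42.0, limma voom 3.58.1 and leaving out each mouse. The scripts were tested on simulated data. The members and the gene lists were chosen with earlier results of these data known. All 9 genes are named in every comparison, and other lineage genes where the adjusted p was under 0.05, at most 4 a list. Dnajc7, Gfap, Aldoc, P2ry12, Aif1, Slco1a4, Ppp1r1b, Lamp5 and Agrp, and the genes of the closing section, were named after their values were seen. Gene positions are from GENCODE on GRCm38, and intervals of counts cover counting error only.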

Additional observations from a re-analysis of the deposited data

Results flagged for a closer look

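In groups of 4 mice, a mouse was noted when its gap to the nearest other mouse, divided by the range of the group, passed Dixon's critical value. Of 27 groups, 3 held such a mouse, and chance alone gives about 1 in 20. Mbp in lactate-treated mouse 1 was at 8172 CPM, whereas the other lactate-treated mice lay between 7111 and 7203 CPM. Mag in sham mouse 4 was at 109.8 CPM, with the other sham mice between 208 and 222 CPM. Mag in vehicle-treated mouse 4 was at 97.0 CPM, with the others between 178 and 191 CPM. Both mice numbered 4 were low for most of the 9 genes.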

How the results depend on the processing

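The calls of Mog, Cnp and Opalin in lactate against sham held under RLE size factors, library totals, no low-count filter, DESeq2, limma voom and in all 8 fits without 1 mouse, and their fitted changes stayed below 0 throughout. The count of called genes there was 3 in each fit without 1 mouse, and 1 with all 12 mice in one fit. With the looser limits the count for lactate against vehicle was 2, and at an adjusted p it was 0 in every setting, as for vehicle against sham. Without 1 mouse, the median log2 fold change of the 9 genes ran from -0.30 to -0.02 for lactate against sham, from -0.22 to 0.13 for vehicle against sham and from -0.30 to -0.01 for lactate against vehicle. Without Mbp, the mean summed level was 1256 CPM in sham, 1223 CPM in vehicle-treated and 1118 CPM in lactate-treated mice. Over all genes, DESeq2 called 53 higher and 9 lower for lactate against vehicle and 399 higher and 77 lower for vehicle against sham, where edgeR called 0 and 1, and 219 and 31.

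The sign of a gene turned only in comparisons in which that gene was not called, and the cause was not tested. With library totals only, vehicle against sham gave -0.002 for Mog and -0.0033 for Opalin. With limma voom, Opalin had -0.0524 in that comparison, Mbp had 0.0006 for lactate against sham, and Mobp 0.0576 and Sox10 0.13 for lactate against vehicle. Fits without 1 mouse ran, for vehicle against sham, -0.12 to 0.25 for Mog, -0.30 to 0.23 for Opalin, -0.12 to 0.39 for Mobp, -0.24 to 0.15 for Cldn11, -0.23 to 0.0562 for Mbp and -0.36 to 0.0135 for Mag. They ran -0.14 to 0.0622 for Mbp in lactate against sham. For lactate against vehicle they ran -0.30 to 0.35 for Sox10, -0.13 to 0.14 for Mag, -0.25 to 0.26 for Mobp and -0.0797 to 0.19 for Mbp.

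The correlations of same-numbered mice ran from -0.15 to 0.16. Mice with different numbers were not compared in that way, so whether the replicate numbers pair the mice could not be decided. With the replicate block the called genes were 0, 3 and 0 for vehicle against sham, lactate against sham and lactate against vehicle. The block turned Mog to -0.0069 and Opalin to -0.0473 in vehicle against sham, Mbp to 0.002 in lactate against sham, and Mobp to 0.0779 and Sox10 to 0.0559 in lactate against vehicle.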

Other observations

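Some lineage genes outside the 9 changed past an unadjusted p under 0.05 and were not called in edgeR, and they are listed as values, chosen after these were seen. Lineage genes that moved the other way stand beside them by CPM, without a test. Olig2, a lineage transcription factor, was at 1.73 to 3.34 CPM in sham and 3.59 to 5.0 CPM in lactate-treated mice, higher in 4 of 4, with a log2 fold change of 0.88 (SE 0.28, adjusted p = 0.0566) in edgeR. Sox8, of the same list, went the other way, at 5.16 to 5.91 CPM in sham and 2.97 to 4.22 CPM in lactate-treated mice. Gjb1, a connexin of oligodendrocyte gap junctions, had -0.98 (SE 0.30, adjusted p = 0.169) for vehicle against sham and -0.73 (SE 0.23, adjusted p = 0.0558) for lactate against sham in edgeR. Gpr17, a receptor of differentiating oligodendrocytes, had -1.16 (SE 0.34, adjusted p = 0.149) and -0.50 (SE 0.23, adjusted p = 0.184) in the same 2 comparisons in edgeR. Among the precursor genes Vcan went the other way in vehicle against sham, at 1.19 to 3.26 CPM in sham and 3.11 to 8.80 CPM in vehicle-treated mice. For lactate against vehicle, Ppp1r14a had -0.89 (SE 0.30, adjusted p = 0.496) in edgeR. In the same list Klk6 went the other way, at 0.587 to 5.57 CPM in vehicle-treated and 3.95 to 22.3 CPM in lactate-treated mice. Il33 did so too, at 13.0 to 20.7 and 22.0 to 30.0 CPM in these groups.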
